A study of Mus musculus with 4 samples.

Results

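The Zfp36 family of mRNA decay proteins was followed through an RNA immunoprecipitation of Cpeb4 from mouse fetal liver erythroblasts. Its members were taken as the probe sets whose gene symbol was Zfp36, Zfp36l1 or Zfp36l2, which gave 3 genes, each with 1 probe set, of 25206 probe sets and 23185 with a gene symbol. Erythroblasts are the nucleated precursors of red blood cells. The cells were Ter119+ cells, selected with magnetic beads from E14.5 fetal livers; Ter119 marks the red cell lineage. No genotype, strain or drug treatment was given for any group. RNA was hybridised to 4 Affymetrix arrays: 1 of total input RNA (no antibody), 1 of RNA precipitated with rabbit IgG, and 2 biological replicates of RNA precipitated with an antibody against Cpeb4, called the IP below. The labels do not say how many livers went into a preparation, nor whether the control arrays came from the same preparation as either IP replicate.

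Zfp36 (also called tristetraprolin or TTP), Zfp36l1 and Zfp36l2 are cytoplasmic zinc finger proteins that bind AU-rich elements (AREs) in the 3′ untranslated regions of short-lived mRNAs. They recruit the CCR4-NOT deadenylase, which shortens the poly(A) tail, and decapping and decay enzymes follow. Cpeb4 binds cytoplasmic polyadenylation elements and acts on the poly(A) tail and translation of its mRNAs. Zfp36 is an immediate early gene with a known role in restraining inflammatory cytokine mRNAs, and Zfp36l2 is known in mouse erythroid progenitors as a factor of their self-renewal. The arrays measured the mRNAs of these proteins, not the proteins or their binding.

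All 3 mRNAs exceeded both controls in the Cpeb4 precipitate. Their IP means stood 2.44- to 3.27-fold over input and 1.79- to 1.99-fold over IgG, and both IP replicates of each lay above both controls. The size over input stayed when the arrays were normalised again, but the size over IgG did not: after a further quantile normalization it was 0.18 to 0.53 on the log2 scale in place of 0.84 to 0.99, and no member passed the test against IgG. Values below are the deposited log2 expression values, and a difference of 1 on that scale is 2-fold. Tests are limma fits over 13911 genes with enough signal, with p-values adjusted over all of them, and a gene is called, or said to rise or fall, at an adjusted p below 0.05. Each control was 1 array, so the spread in every test came from the 2 IP arrays alone.

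**Figure D1:**
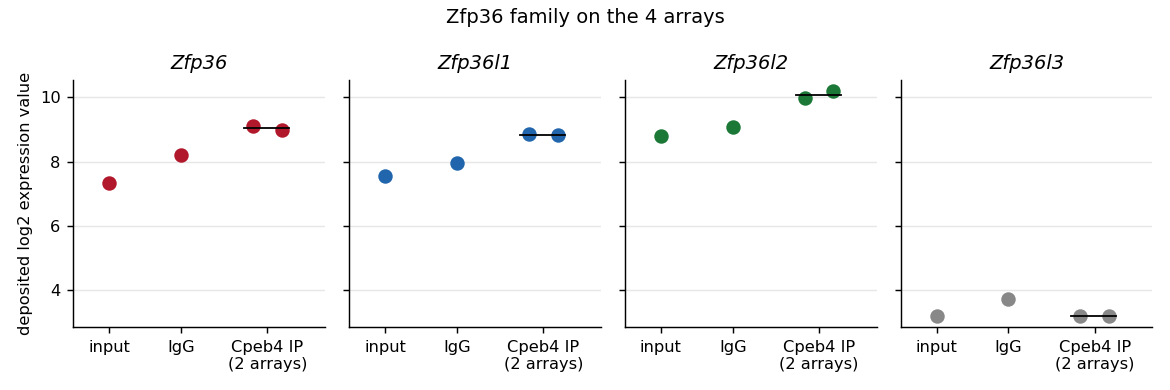
Deposited log2 expression values of the 3 members and of Zfp36l3 on the input array, the IgG array and the 2 IP arrays (points), with a line at the IP mean. Zfp36, Zfp36l1 and Zfp36l2 rise from input over IgG to the IP, a middle position of IgG that Zfp36l2 lost when arrays were centred on their medians; Zfp36l3 lies near 3.19 on 3 of the 4 arrays. Levels of different genes are not to be compared.

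Zfp36, the founding member, had a value of 7.33 on the input array, 8.20 on the IgG array, and 9.10 and 8.98 on IP replicates 1 and 2. Both IP arrays were above both controls, by more than the gap of 0.12 between them. The IP mean of 9.04 ± 0.09 (SD, n = 2) was 1.71 ± 0.13 (difference ± SE) over input, or 3.27-fold, with a limma adjusted p of 0.00952. Over IgG the difference was 0.84 ± 0.13, or 1.79-fold (limma adjusted p = 0.00892). Of the 13911 tested genes, 1.34% had a larger difference from input and 24.5% a larger one from IgG.

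Zfp36l1, a paralog known for roles in lymphocyte and vascular development, had a value of 7.54 on the input array, 7.96 on the IgG array, and 8.85 and 8.83 on IP replicates 1 and 2. The IP arrays were again the highest, and they lay within 0.02 of each other. The IP mean of 8.84 ± 0.01 (SD, n = 2) was 1.30 ± 0.12 (SE) over input, or 2.47-fold, with a limma adjusted p of 0.0108. Over IgG it was 0.88 ± 0.12 higher, or 1.84-fold (limma adjusted p = 0.00649). Larger differences were found in 2.70% of tested genes against input and in 23.3% against IgG. RefSeq lists a pseudogene of Zfp36l1, which has no probe set of its own here, and whether its RNA reached the Zfp36l1 probes is not known.

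Zfp36l2, the paralog linked to erythroid progenitors, had a value of 8.79 on the input array, 9.08 on the IgG array, and 9.97 and 10.19 on IP replicates 1 and 2. Its IP arrays lay farthest apart of the 3 members, at 0.22, and both were still above both controls. The IP mean of 10.08 ± 0.16 (SD, n = 2) was 1.29 ± 0.15 (SE) over input, or 2.44-fold, with a limma adjusted p of 0.0143. Over IgG it was 0.99 ± 0.15 higher, or 1.99-fold (limma adjusted p = 0.00887). The shares of tested genes with a larger difference were 2.80% against input and 20.3% against IgG.

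The fourth mouse gene of the family, Zfp36l3, which is known from the placenta, was measured but not tested, because its mean over the 4 arrays was below the level set for testing (3.84). It had 3.19 on the input array and on both IP arrays, and 3.71 on the IgG array. At this level, with 3 arrays at the same value, no difference between arrays can be read.

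Called counts have to be read against how common such calls were. Against input, 3 of 3 members were called higher, as were 9.38% of all tested genes, while 13.8% were called lower. Against IgG, 3 of 3 were also called higher, but so were 35.0% of tested genes, with 19.7% called lower. Against both controls, 3 of 3 were called higher, and 7.03% of tested genes were. Of the genes called against IgG, 64.0% were called higher, but 50.8% once the arrays had been quantile normalised anew and 81.7% with each array centred on its median. Of those called against input, 40.5% were higher, against 51.9% after quantile normalization again and 38.7% with median centring. The calls against IgG thus moved with the scaling.

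By size alone the contrasts separated more clearly in the values as deposited. At least 2-fold over input in both IP replicates, there were 3 of 3 members and 4.04% of tested genes. At least 2-fold over IgG in both, there were 0 of 3 members and 18.6% of tested genes. Zfp36l2 reached 2-fold over IgG in replicate 2 (1.11 on the log2 scale) but not in replicate 1 (0.88). This depended on the cut and the scaling. At 1.5-fold over IgG every member passed in both replicates (lowest 1.71-fold), among 4167 tested genes. With arrays centred on their medians, every member passed 2-fold, with log2 differences of 1.23 and 1.09 (Zfp36), 1.23 and 1.19 (Zfp36l1), and 1.22 and 1.42 (Zfp36l2). After quantile normalization again they ran from 0.11 to 0.64. The median difference over all tested genes was -0.01 against input and 0.08 against IgG.

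**Figure D2:**
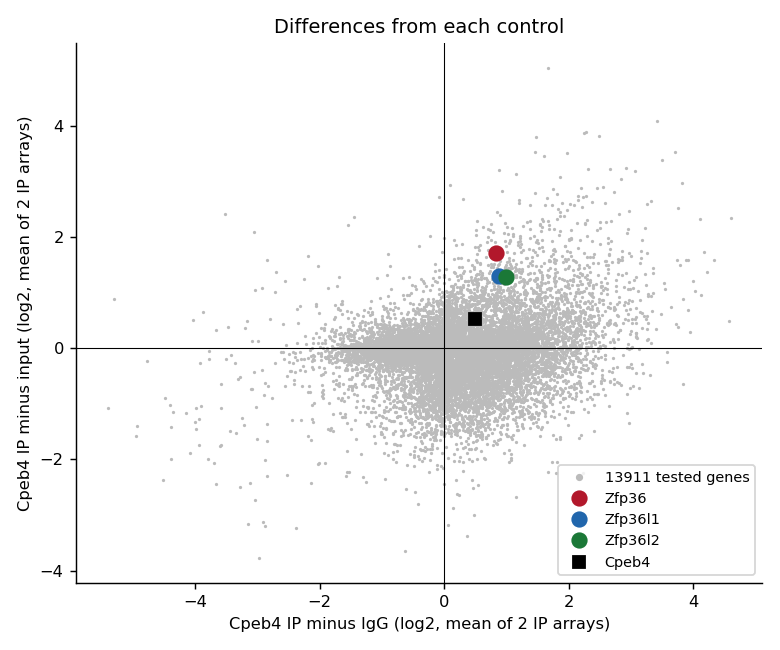
Difference of the IP mean from IgG (horizontal axis) and from input (vertical axis) on the log2 scale, 1 grey point per tested gene, with the 3 members as coloured circles and Cpeb4 as a black square. The members lie at 0.84 to 0.99 over IgG and 1.29 to 1.71 over input, above Cpeb4 on both axes; both axes share the IP arrays.

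In the values as deposited, the members differed from each other mainly against input. Relative to input, the replicate differences of Zfp36 were 1.77 and 1.65, those of Zfp36l1 1.31 and 1.29, and those of Zfp36l2 1.17 and 1.40. The replicates of Zfp36 lay above those of both paralogs, which overlapped each other. Relative to IgG, the replicate differences were 0.90 and 0.78 for Zfp36, 0.89 and 0.87 for Zfp36l1, and 0.88 and 1.11 for Zfp36l2. There Zfp36 no longer stood above its paralogs. After quantile normalization again, the replicate differences from IgG were 0.41 and 0.64 for Zfp36l2, above those of the other members. Those were 0.25 and 0.11 for Zfp36, and 0.22 and 0.19 for Zfp36l1. These differences between members were not tested, and all rest on the same 4 arrays.

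The IgG array, a measure of RNA that came down without the specific antibody, also stood above input for all 3 members as deposited. It was 0.87 over input for Zfp36, 0.42 for Zfp36l1 and 0.29 for Zfp36l2, differences between single arrays with no test; with each array centred on its median that of Zfp36l2 turned to -0.07. The median tested gene was at -0.15 on this measure, and 10.7%, 24.5% and 29.3% of tested genes, in the same order of members, had a larger difference. Values in the order input below IgG below both IP replicates were found for 3 of 3 members and for 5.59% of tested genes. Values on the IgG array were spread less widely: their SD over all probe sets was 1.74, where input had 2.13 and the IP arrays had 2.05 and 2.07.

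Normalising the 4 arrays again to 1 common distribution (re-quantiled arrays below) changed the 2 contrasts in opposite ways. Zfp36 then had values of 7.04 on input, 8.73 on IgG, and 8.99 and 8.85 on the IP arrays, so that both IP arrays were still the highest. Zfp36l1 had 7.24, 8.50, 8.73 and 8.69 in the same order, and Zfp36l2 had 8.50, 9.50, 9.91 and 10.14. Against IgG the differences were 0.18 ± 0.12 for Zfp36, 0.21 ± 0.10 for Zfp36l1 and 0.53 ± 0.15 for Zfp36l2 (SE), with limma adjusted p-values of 0.266, 0.170 and 0.0566. Over the alternatives tried, the adjusted p against IgG ran from 0.00101 to 0.266 for Zfp36, from 0.000496 to 0.170 for Zfp36l1 and from 0.00121 to 0.0925 for Zfp36l2. Against input the differences were 1.88, 1.47 and 1.52 after this normalization, with limma adjusted p-values of 0.0197, 0.0197 and 0.0218. Centring each array on its median instead moved the difference of the median tested gene from IgG to 0.41 and gave 1.16, 1.21 and 1.32 against IgG. The direction of both IP contrasts was the same for all 3 members under either scaling.

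**Figure D3:**
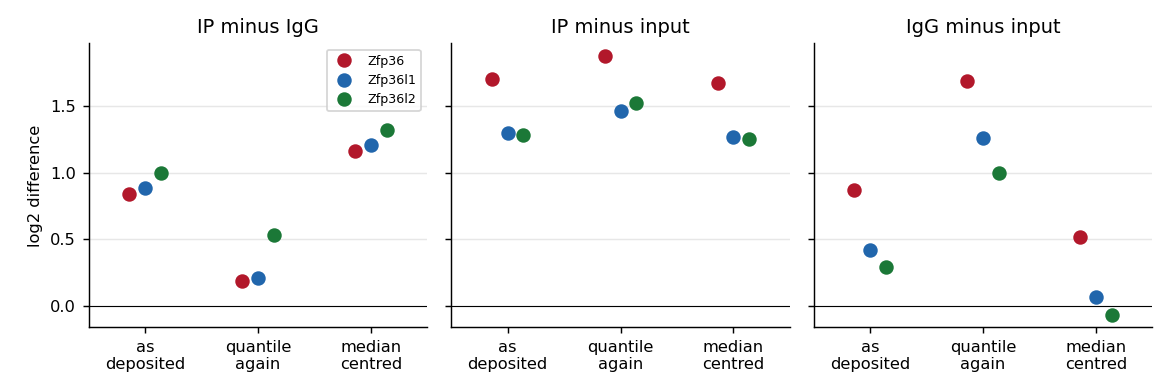
Log2 differences of the 3 members (colours) for IP minus IgG, IP minus input and IgG minus input, with values as deposited, after quantile normalization again, and with each array centred on its median. IP minus input stays between 1.25 and 1.88, IP minus IgG runs from 0.18 to 1.32, and IgG minus input of Zfp36l2 turns to -0.07 with median centring.

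The members were then set beside the genes whose values over the 4 arrays were most like theirs, measured as the Euclidean distance between profiles centred on their own means. Nearest to Zfp36 were Ehd3 (distance 0.101), Ifitm6 (0.118) and Limd2 (0.139). Nearest to Zfp36l1 were Mrtfa (0.0372), Ttc7b (0.0477) and Plxnd1 (0.0489). Nearest to Zfp36l2 were App (0.0596), Sptbn1 (0.0674) and Id2 (0.102). Zfp36l1 was number 28 in the order of genes nearest to Zfp36l2, at 0.198, and Zfp36l2 number 38 for Zfp36l1. Zfp36 was farther from both, number 163 for Zfp36l1 (0.375) and number 301 for Zfp36l2 (0.496). With 4 arrays, 2 of them replicates, many genes lie this close.

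RefSeq promoter windows (build GRCm38.p6, 250 bases before to 50 bases after the start of the gene) were found for Zfp36 and Zfp36l1. They are shown as background only. The arrays measured input and precipitated RNA, not promoters, and no link from these windows to the differences above was tested. Both genes lie on the minus strand, Zfp36 at chr7:28379179-28379478 and Zfp36l1 at chr12:80112964-80113263, and capitals mark the matches.
Zfp36: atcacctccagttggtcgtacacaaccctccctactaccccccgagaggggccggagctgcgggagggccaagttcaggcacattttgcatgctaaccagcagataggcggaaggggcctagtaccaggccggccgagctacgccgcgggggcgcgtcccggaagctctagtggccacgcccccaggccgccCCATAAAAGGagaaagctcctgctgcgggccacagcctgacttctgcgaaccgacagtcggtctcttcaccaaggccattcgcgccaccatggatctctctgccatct
Zfp36l1: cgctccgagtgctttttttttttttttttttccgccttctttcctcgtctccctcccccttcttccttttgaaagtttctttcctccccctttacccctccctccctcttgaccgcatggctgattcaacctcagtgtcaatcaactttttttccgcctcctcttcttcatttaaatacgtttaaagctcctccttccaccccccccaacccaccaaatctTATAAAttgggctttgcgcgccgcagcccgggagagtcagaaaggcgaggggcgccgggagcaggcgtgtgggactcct

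Both strands were searched for 2 motifs, the CArG box, which serum response factor binds at many immediate early genes, and TATAAA. The Zfp36 window held a CArG box from 58 to 49 bases before the start, a match found in 1.63% of the 32851 windows in the table. The Zfp36l1 window held TATAAA from 29 to 24 bases before the start, a match found in 13.6% of windows. These are matches of letters only.

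Among the controllers of the family, in a list of p38 and MK2 control genes, 3 of 9 tested genes rose against both controls. They were the kinases MK2 and MK3 and the phosphatase gene Ppp2cb. Of all tested genes, 7.03% rose against both. Mapkapk2 (MK2), which phosphorylates Zfp36 downstream of p38 and so holds back its decay activity, had 7.09 on input, 6.85 on IgG, and 8.51 and 8.58 on the IP arrays. It rose by 1.45 over input (limma adjusted p = 0.0102) and by 1.69 over IgG (limma adjusted p = 0.0021). Mapkapk3 (MK3), its close relative, had 6.85, 7.12, 7.81 and 8.03 in the same order, and rose by 1.07 over input (limma adjusted p = 0.0188) and by 0.80 over IgG, a difference that was 0.06 after quantile normalization again. Ppp2cb, a catalytic subunit of protein phosphatase 2A, rose by 0.70 over input and 1.97 over IgG. Dusp1, the phosphatase that switches p38 off, fell against input by 1.81, and Ppp2r1a, the scaffold subunit of phosphatase 2A, fell by 1.42. Of the 9 tested genes of this list of 10, 3 rose and 2 fell against input, and 6 rose and none fell against IgG (2 and 2 after quantile normalization again). Of all tested genes, 9.38% rose and 13.8% fell against input, and 35.0% rose and 19.7% fell against IgG. The list's median was 0.21 against input and 0.60 against IgG, beside -0.01 and 0.08 over all tested genes.

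Adaptors that bind phosphorylated Zfp36, the 14-3-3 proteins, gave 1 gene up against input of 6 tested, Ywhag, by 1.12 (limma adjusted p = 0.0131), and it was 1.95 over IgG. Against IgG 4 rose and 1 fell, Sfn, which fell by 1.23. The list's medians were 0.23 against input and 1.01 against IgG. The shares of all tested genes that rose were 9.38% and 35.0%, and those that fell 13.8% and 19.7%, in the same order. Ywhah was not analysed here.

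Of 11 subunits of the CCR4-NOT deadenylase, which the family recruits, 2 rose against input and none fell: Cnot7, a catalytic subunit, by 0.91 (limma adjusted p = 0.0374), and Cnot6, another, by 0.89 (limma adjusted p = 0.0168). Against IgG 8 rose and none fell, with Cnot9 2.01 and Cnot6 1.94 higher; with re-quantiled arrays the counts were 5 up and 1 down. Of all tested genes, 9.38% rose and 13.8% fell against input, and 35.0% rose and 19.7% fell against IgG. The list's median was 0.04 against input and 0.99 against IgG. All 3 Zfp36 mRNAs were thus further above input than any CCR4-NOT subunit, a comparison that was not tested.

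Decay enzymes downstream of deadenylation are set beside all tested genes, of which 9.38% rose and 13.8% fell against input. Of 16 decapping and 5′-to-3′ decay genes, 1 rose, Lsm5, by 0.77, and 3 fell, with Lsm4 falling by 1.90 and Edc3 by 0.89, while the median was -0.27. Of 12 exosome genes none rose and 1 fell, Exosc8, by 0.60 (none with re-quantiled arrays), with a median of -0.35. Against IgG, 9 of the 16 rose, with Lsm3 2.35 and Dcp2 2.19 higher, and 7 of the 12, with Exosc3 2.03 higher; none fell in either list. By comparison, 35.0% of all tested genes rose and 19.7% fell against IgG. With re-quantiled arrays, the 16 gave 7 up and 3 down, and the 12 gave 6 up and 1 down. The 4EHP and GYF repressors, which the family uses to block translation, gave 2 of 3 genes lower than input: Gigyf2 fell by 0.94 and Eif4e2 by 0.92, and Gigyf1, at -0.12, did not pass. Against IgG, Gigyf2 rose by 1.30, Eif4e2 rose by 0.63, a difference of -0.09 with re-quantiled arrays, and Gigyf1 fell by 0.85.

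Other proteins that bind AREs or related elements were called against input in both directions. Of 14 tested, 2 rose, Celf2 by 1.52 (limma adjusted p = 0.0103) and Hnrnpa0 by 0.71 (limma adjusted p = 0.0262), and 1 fell, Auh, by 1.24. Celf2 had 4.27 on input, 5.22 on IgG, and 5.73 and 5.86 on the IP arrays, the same order of arrays as the Zfp36 members. The list's median was 0.07 against input and 1.04 against IgG, where 10 rose and none fell (8 and 1 after quantile normalization again), led by Rc3h2, a Roquin protein, at 1.84. Among all tested genes 35.0% rose and 19.7% fell against IgG, and 9.38% rose and 13.8% fell against input. Of 5 BTG and TOB adaptors, which also bring deadenylases to mRNAs, none rose and 1 fell against input, Btg3, by 1.02. Against IgG 2 of the 5 rose and none fell, and re-quantiled arrays gave 1 up and 2 down.

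**Figure D4:**
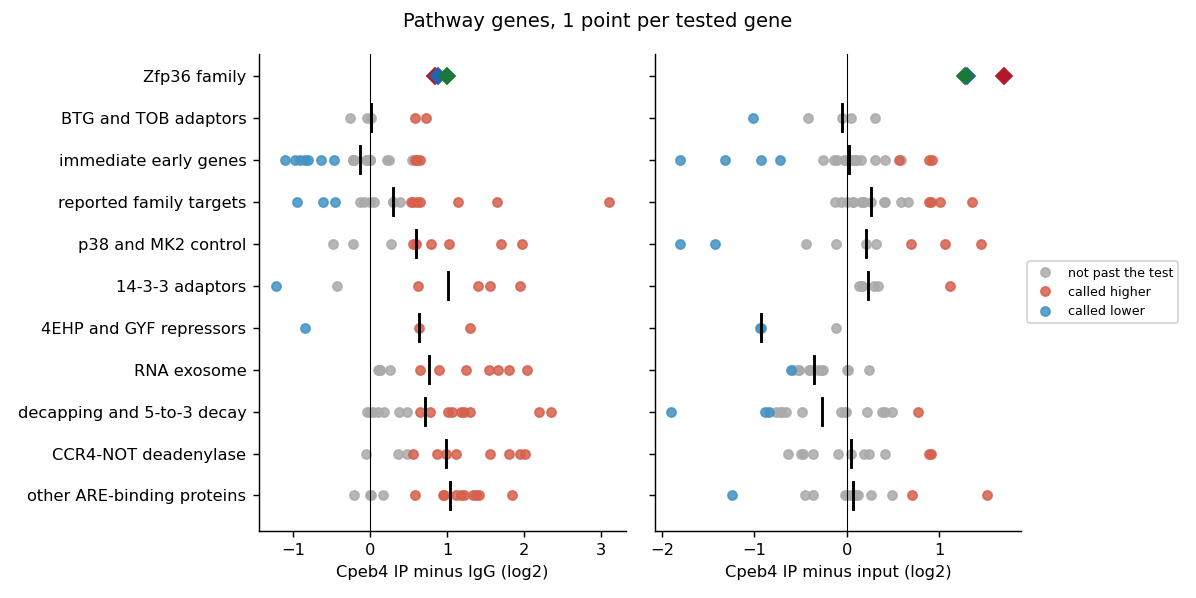
Difference of the IP mean from IgG (left) and from input (right) on the log2 scale, 1 point per tested gene in each pathway list, coloured by the limma call, with a black bar at the list's median and Zfp36 (red), Zfp36l1 (blue) and Zfp36l2 (green) as diamonds at the top. Against input the members lie at 1.29 to 1.71, and in the other lists only Celf2, Mapkapk2 and Notch1 lie above 1.29, while against IgG, at 0.84 to 0.99, they lie among them.

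Transcripts reported elsewhere as targets of the family were mixed. Of 26 measured, 17 were tested, since cytokine mRNAs such as Csf2, Il2 and Il6 were below the level for testing. Against input 4 rose and none fell: Notch1 by 1.36, Plaur, the urokinase receptor, by 1.01, Ccl3, a chemokine, by 0.92, and Myc by 0.90. Tnf, the best known target, had 3.99 on input, 4.80 on IgG and 4.66 on both IP arrays, and passed neither test (limma adjusted p = 0.0588 against input and 0.469 against IgG). Against IgG 7 rose and 3 fell, with Hif1a 3.10 and Ccl3 1.65 higher and Birc3 lower by 0.95; re-quantiled arrays gave 2 up and 3 down. The list's median was 0.27 against input and 0.30 against IgG. Among all tested genes 9.38% rose against input and 35.0% against IgG, where this list gave 4 and 7 of 17. The shares of all tested genes that fell were 13.8% and 19.7%, in the same order.

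Other immediate early genes were mixed. Of 22 tested, 3 rose against input, Klf6 by 0.92, Myc by 0.90 and Nfkbia, an inhibitor of NF-kB, by 0.56. Another 4 fell, among them Dusp1 by 1.81 and Atf3 by 1.31. Against IgG 3 rose and 7 fell, with Egr3 lower by 1.11 and Dusp2 by 0.97; re-quantiled arrays gave none up and 11 down, and median centring gave 6 up and 3 down. Myc, with 8.03 on input, 8.32 on IgG, and 8.93 and 8.92 on the IP arrays, was the 1 gene of the list called higher against both controls, and its difference from IgG was -0.04 with re-quantiled arrays. The order input below IgG below both IP replicates was found for 3 of the 22, Myc, Klf6 and Nfkbia. Of all tested genes, 5.59% had this order, 35.0% rose against IgG and 19.7% fell against it. Against input, 9.38% of them rose and 13.8% fell. The list's median was 0.02 against input and -0.13 against IgG, a median that was 0.19 with arrays centred on their medians. The difference of Zfp36 from input, 1.71, was larger than that of any of these 22 genes, which was not tested.

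Markers of some cell types other than erythroblasts also stood above input on the IP arrays. Most erythroblast markers were high on all arrays, with Slc4a1, the anion exchanger of the red cell membrane, at 12.20 on input. The list's summed level on the linear scale was 0.77 of input on both IP arrays. Of its 9 tested genes, none rose and 3 fell against input. Neutrophil markers summed to 2.41 times input on the IgG array and 3.66 and 3.64 times on the IP arrays, and 7 of 8 rose against input. Megakaryocyte markers summed to 1.91 times input on IgG and 3.45 and 3.72 times on the IP arrays, with 6 of 7 rising. Hepatocyte markers summed to 1.94 times on IgG and 4.36 and 5.12 times on the IP arrays, with 4 of 6 rising, and macrophage markers to 1.37, 2.10 and 2.44 times, with 3 of 7 tested rising. The sums of these 4 lists had the order of arrays seen for the Zfp36 members, input below IgG below the IP. Single markers often did not. The order was found for 4 of 8 neutrophil, 5 of 7 megakaryocyte, 5 of 6 hepatocyte and 2 of 7 macrophage markers, and for 5.59% of all tested genes. Of all tested genes, 9.38% rose and 13.8% fell against input, and 35.0% rose and 19.7% fell against IgG. Against IgG, 4 of 8 neutrophil, 5 of 7 megakaryocyte, 4 of 6 hepatocyte and 3 of 7 macrophage markers rose, and 1 macrophage marker fell. With re-quantiled arrays 4, 3, 3 and 2 rose, in the same order, and 1 neutrophil and 1 macrophage marker fell. Zfp36 is known to be expressed in neutrophils and macrophages. The part of these cell types in the members' differences was not tested. On these arrays of input and precipitated RNA, the share of a cell type, its RNA per cell and the RNA that came down cannot be told apart.

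**Figure D5:**
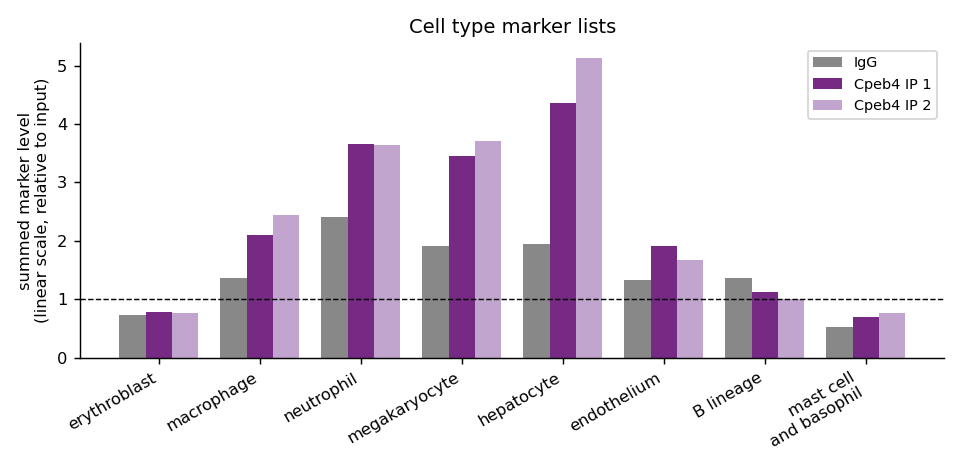
Summed level of each cell type marker list on the linear scale, relative to the input array (dashed line at 1), on the IgG array and the 2 IP arrays (bars). Neutrophil, megakaryocyte and hepatocyte markers stand 3.45 to 5.12 times over input on the IP arrays, and erythroblast markers at 0.77 times.

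Endothelial markers summed to 1.32 times input on IgG and 1.92 and 1.67 times on the IP arrays, with 1 of 5 tested rising, Pecam1. That sum also had the order input below IgG below the IP, which was found for 1 of the 5 tested genes. B lineage markers summed to 1.37, 1.13 and 1.00 times, with none of 2 tested rising. Mast cell and basophil markers summed to 0.52, 0.70 and 0.76 times, with none of 3 tested rising and Cpa3 falling. Against input, 9.38% of all tested genes rose and 13.8% fell.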

How the data were processed

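RNA was measured on 4 Affymetrix arrays, grouped by the sample titles into input (1), IgG (1) and Cpeb4 IP (2). The authors deposited log2 values, 1 for each array and probe set. The submitters' processing notes name RMA and affy; versions, probe definition and genome build are not given in the sources used here. Probe sets are Entrez gene numbers, named through GEO's platform annotation: 23185 had 1 gene symbol, 0 several and 2021 none.

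Genes with a symbol and a mean over the 4 arrays at or above the 40th percentile (3.84) were tested, 13911 in all, in limma 3.58.1 (R 4.3.3). The model had 3 groups and left 1 residual degree of freedom, and p-values were adjusted by Benjamini-Hochberg. In 3032 tested genes both IP values were equal within 1e-09. Such ties hold no spread, so these genes were given 0 residual degrees of freedom and took the prior spread (SD 0.110, 3.07 prior degrees of freedom). None of the members was tied. The fit was also run on simulated data with such ties. All simulated arrays had the same spread, so that run could not test whether the controls vary like the IP arrays. Each control was 1 array and was assumed to vary like the IP arrays. The number of arrays limits the precision.

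Named genes were the members, the 2 largest and 2 smallest differences of each pathway list per contrast, the 3 nearest profiles per member and the highest marker on input per list. Nfkbia, Tnf, Csf2, Il2, Il6 and Zfp36l3 fall outside this rule and were chosen after their values were seen. The members and lists were chosen with earlier results of these data known. Alternatives were other filters, scalings, prior settings, thresholds and leaving out either IP array.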

Additional observations from a re-analysis of the deposited data

How the results depend on the processing

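No paired analysis was possible because the control groups hold 1 array each and carry no replicate number. Against input, the 3 members kept their direction and their call under every alternative tried, except that Zfp36l2, at 1.29, missed with plain eBayes, in which tied genes count as a spread of 0 (limma adjusted p = 0.108). Against IgG, that setting lost Zfp36 (0.84, limma adjusted p = 0.0591) and Zfp36l2 (0.99, limma adjusted p = 0.0925), and quantile normalization again lost all 3 (0.18, 0.21 and 0.53). Without either IP replicate, values with no test, the differences ran from 0.78 to 0.90 for Zfp36, 0.87 to 0.89 for Zfp36l1 and 0.88 to 1.11 for Zfp36l2 against IgG, and from 1.65 to 1.77, 1.29 to 1.31 and 1.17 to 1.40 against input. IgG minus input, 0.87, 0.42 and 0.29 as deposited, became 1.69, 1.26 and 1.00 after quantile normalization again, and 0.51, 0.061 and -0.067 with median centring, so Zfp36l2 reversed. The cause was not tested.

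Genes called lower than IgG numbered 2738, but 5276 with no filter, 1114 with the 60th percentile filter (fewer genes tested) and 1395 with median centring; genes called lower than input numbered 1916, but 1145 after quantile normalization again. At 1.5-fold and 4-fold in place of 2-fold, the genes past the size in both IP replicates numbered 4167 and 574 above IgG (2588 at 2-fold), 2172 and 119 below IgG (868), 1226 and 102 above input (562), and 1916 and 42 below input (721). Of 280 list counts under the alternatives, 218 stayed within 1.5 times and 62 did not.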
